A study of Mus musculus with 8 samples.

Results

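The change in 5-hydroxymethylcytosine (5hmC) after *Tet3* knockdown in mouse neural precursor cells (NPCs) was estimated from all 8 oxRRBS libraries of the series. oxRRBS reads the CpG-rich fragments left by the enzyme MspI. In a bisulphite library (BS) both 5-methylcytosine (5mC) and 5hmC are read as C, and in an oxidative bisulphite library (oxBS) only 5mC is, so that BS minus oxBS, in percentage points, estimates 5hmC. BS and oxBS libraries of the same shRNA and replicate number were taken as a pair, which gave 1 estimate per replicate. There were thus 2 estimates for the Non-targeting control shRNA (shScr) and 2 for the *Tet3* shRNA (shTet3). Of the 757812 CpGs listed, 451598 were covered by 20 or more calls in each of the 8 libraries, and these were averaged in fixed 1 kb windows with at least 3 such CpGs. This left 41333 of 111635 windows, holding 407861 CpGs, together with 11417 promoters and 8837 gene bodies of protein-coding genes.

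Both groups were NPCs derived from A2lox.cre ES cells, a male line of strain 129P2/OlaHsd that was grown on feeder cells, and both received doxycycline at 2 µg/ml for 5 days to induce the shRNA. The ES cells were clones selected for the shRNA, and the labels do not say whether replicates came from separate clones, cultures or differentiations, so that the spread between replicates may be technical. They name the *Tet3* shRNA only by its target, and the study names it as Tet3-2 for these data. No RNA was measured in these files, so that neither the loss of *Tet3* mRNA nor the markers of NPCs could be checked here, and a shift in the share of cell types cannot be told apart from a change within cells. Total calls per library ranged from 42516767 to 61865967 and median coverage from 43 to 54, and the median window held between 361 and 441 calls per library. Calls come from reads copied by PCR without molecular identifiers and are not independent molecules, so that counting errors given here are lower limits in that respect.

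TET enzymes oxidise 5mC to 5hmC, which can be oxidised further and replaced by an unmethylated cytosine, or diluted at replication. *Tet3* is one of the genes coding for these enzymes, and 5hmC is known to be abundant in neural tissue, where it lies mostly in the bodies of genes. An estimate of 5hmC cannot exceed the BS level, and a true 5hmC level cannot be negative. BS minus oxBS can be negative, since each is a measured share of calls, and the size of the negative values is therefore a measure of the error of the estimate within the same data.

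The measured DNA is shown for 5 regions whose values are given further on, because the estimate of a window rests on only a few MspI fragments. W1, W7 and W8 are windows taken by the selection rule for differences between the shRNAs, and the *Srrm4* window and the *Grb10* gene body had positive estimates in all 4 replicates. The forward strand of mm9 is printed, with the CpGs that were measured in capitals.
W1 (Eml2 coding exon), chr7:19764585-19764766: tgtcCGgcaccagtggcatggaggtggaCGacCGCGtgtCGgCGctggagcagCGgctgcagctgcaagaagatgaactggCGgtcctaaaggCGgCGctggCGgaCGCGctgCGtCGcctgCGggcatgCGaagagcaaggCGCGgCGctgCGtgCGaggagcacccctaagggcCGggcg
W7 (Hs3st3b1 coding exon), chr11:63702680-63702769: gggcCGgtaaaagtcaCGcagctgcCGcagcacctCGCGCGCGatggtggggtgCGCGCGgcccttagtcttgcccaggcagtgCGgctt
W8 (intergenic, nearest TSS Tbx20), chr9:24585617-24585711: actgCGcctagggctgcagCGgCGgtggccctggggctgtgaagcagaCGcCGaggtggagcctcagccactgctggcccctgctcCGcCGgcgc
Srrm4 window (coding exon), chr5:116899456-116899546: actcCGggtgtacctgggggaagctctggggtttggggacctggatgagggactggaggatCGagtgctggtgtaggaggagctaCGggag
Grb10 gene body (intron), chr11:11925638-11925811: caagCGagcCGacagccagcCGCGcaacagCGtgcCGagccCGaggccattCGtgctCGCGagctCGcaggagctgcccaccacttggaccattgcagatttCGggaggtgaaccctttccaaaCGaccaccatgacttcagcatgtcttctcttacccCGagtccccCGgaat
The stretches ran from the first to the last measured CpG with a few flanking bases and were between 90 and 182 bases long. W7, W8, the *Srrm4* window and the *Grb10* stretch held 1 MspI site (CCGG) each and W1 held 2. All 23 CpGs of W1 lay in a coding exon, and all 15 CpGs measured in the *Grb10* gene body lay in 1 intronic stretch, so that CpGs of such a region were often read on the same DNA fragments and are not independent of each other.

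Averaged over the 41333 windows, estimated 5hmC was small in every replicate and lower in shTet3, although the sign of the difference depended on how CpGs were weighted. The shScr replicates gave 0.622 and 0.533 percentage points, and the shTet3 replicates 0.342 and 0.488. The shScr mean was 0.577 ± 0.0629 (SD, n = 2), against 0.415 ± 0.103 (SD, n = 2) for shTet3. Both shTet3 values lay below both shScr values, and the difference was -0.162 points, for which the two-sided exact permutation test gave p = 0.33, the smallest p that 2 values against 2 allow. The standard error of this difference from counting alone was 0.0156 points if the calls of different CpGs are independent and 0.0318 if the CpGs of a window are read together, and neither covers the spread between cultures. The lower shTet3 mean rested largely on replicate 1: without it the difference was -0.0895 points. Averaged over CpGs in place of windows, the difference was -0.105 points, without overlap. With the calls of all CpGs pooled in each library it was 0.987 points, with group means of -0.553 in shScr and 0.434 in shTet3 and overlapping replicates (p = 0.67, exact permutation test). The median window had an estimate of 0.0579 and 0.0565 points in shScr and 0.0108 and 0.0451 in shTet3.

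The levels from which the estimate is made differed far more between the shRNAs than the estimate itself. The BS level was 39.8% and 46.7% in shScr and 33.1% and 33.2% in shTet3, a difference of -10.1 points. The oxBS level was 39.2% and 46.2% in shScr and 32.7% and 32.7% in shTet3, a difference of -9.96 points. The groups did not overlap in either kind of library (p = 0.33 each, exact permutation test). Set against the BS level, estimated 5hmC was 1.56% and 1.14% of it in shScr and 1.04% and 1.47% of it in shTet3, with overlap of the groups on this scale (p = 0.67, exact permutation test). The lower mean estimate in shTet3 thus stood beside a lower total level, and what part the level had in the estimate was not tested.

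**Figure D1:**
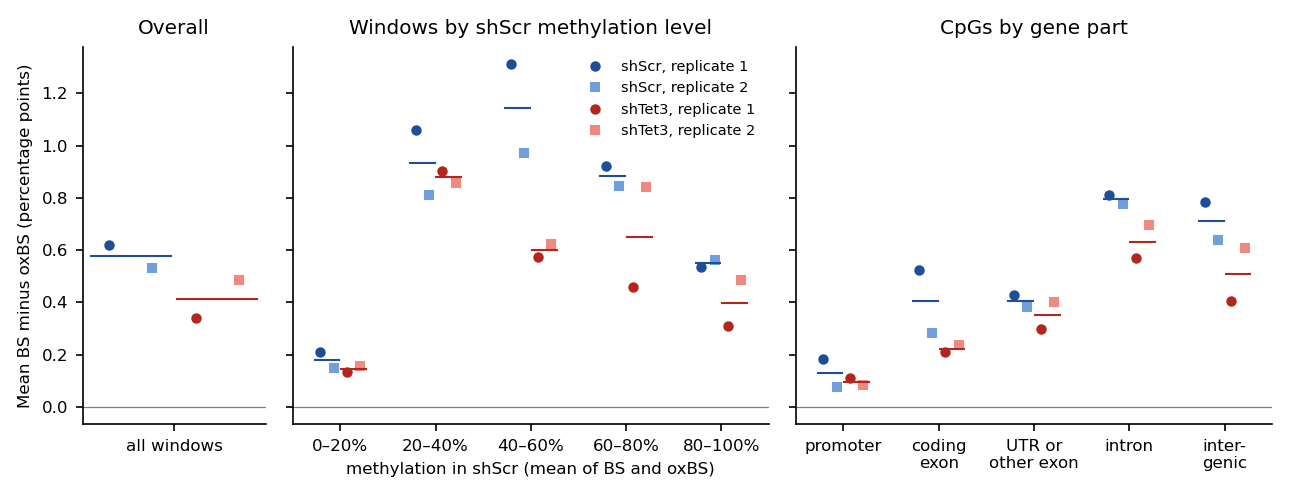
Mean BS minus oxBS in percentage points, with a point for each replicate and a bar for the mean of 2 replicates, for shScr (blue) and shTet3 (red), over all windows (left), over windows grouped by their methylation in shScr (middle) and over CpGs grouped by gene part (right). The shTet3 points lie below the shScr points over all windows, in the 3 groups of windows above 40%, and in coding exons, introns and intergenic DNA, and they overlap elsewhere.

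The difference was then followed across methylation levels, since 5hmC can only be made where 5mC is present. Windows were grouped by the mean of the 4 shScr libraries. In the 16090 windows below 20%, the estimate was 0.212 and 0.148 points in shScr and 0.135 and 0.158 in shTet3, and in the 2317 windows between 20% and 40% it was 1.06 and 0.812 against 0.902 and 0.858. In both of these groups the replicates overlapped. The 4232 windows between 40% and 60% had the highest estimates in shScr, 1.31 and 0.974 points, against 0.575 and 0.626 in shTet3. The difference of -0.542 points was the largest of the 5 groups at this coverage minimum and grouping, and its counting error was between 0.0645 and 0.129 points. With a coverage minimum of 10 it was -0.233 points, less than the -0.336 points then found between 20% and 40%. In the 11013 windows between 60% and 80% the values were 0.922 and 0.845 points against 0.461 and 0.840, and in the 7681 windows above 80% they were 0.537 and 0.563 against 0.309 and 0.484. The groups did not overlap in these 3 groups of windows (p = 0.33 each, exact permutation test), although between 60% and 80% the gap between shScr replicate 2 and shTet3 replicate 2 was small. Without shTet3 replicate 1 the difference was -0.0435 points between 60% and 80% and -0.0656 above 80%, and without shTet3 replicate 2 it was -0.423 and -0.241. The order of the groups depended on the libraries that defined them. With the windows grouped by shScr BS alone the difference between 40% and 60% was 0.547 points, and with the windows grouped by shScr oxBS alone the difference above 80% was 0.829 points. Grouped by shTet3 or by all 8 libraries, the difference between 40% and 60% was -0.318 and -0.378 points. Grouped by 1 shScr replicate and compared over the other, it was -0.187 and -0.345 points, against -0.265 and -0.350 between 60% and 80%, so that it was no longer the largest.

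By gene part, estimated 5hmC was lowest at promoters and highest in introns and intergenic DNA in each of the 4 replicates. Over the 228935 CpGs of promoters, from 1 kb before to 0.5 kb after a transcription start site (TSS), it was 0.185 and 0.0781 points in shScr and 0.109 and 0.0856 in shTet3, at BS levels between 3.69% and 5.19%. Over the 78338 CpGs of introns it was 0.812 and 0.777 points in shScr and 0.569 and 0.697 in shTet3. Intergenic CpGs, 82784 in number, gave 0.785 and 0.637 points against 0.407 and 0.607. Coding exons had BS levels close to those of introns but estimates of 0.525 and 0.283 points in shScr and 0.210 and 0.235 in shTet3 over 54155 CpGs. UTRs and other exons (7386 CpGs) gave 0.427 and 0.381 points against 0.299 and 0.401. The shTet3 values lay below the shScr values in coding exons (-0.181 points), introns (-0.162) and intergenic DNA (-0.204), and overlapped them at promoters (-0.0342) and in UTRs and other exons (-0.0540). Leaving out shScr replicate 1 made the difference in coding exons -0.0604 points, and leaving out shTet3 replicate 1 made it -0.0978 in introns and -0.104 in intergenic DNA. Without shScr replicate 2 it was -0.302 points in coding exons. With a coverage minimum of 10, it was -0.0783 points in intergenic DNA and -0.307 in UTRs and other exons. Averaged over windows assigned to a part in place of CpGs, the groups overlapped in coding exons (0.520 and 0.331 points against 0.294 and 0.340) and in intergenic DNA (0.883 and 0.733 against 0.339 and 0.740), and stayed apart in introns (0.900 and 0.982 against 0.577 and 0.806). The sign depended on the weighting of CpGs. When the methylated calls of all CpGs of a part were divided by all its calls, so that deeply covered CpGs weighed more, the difference was positive in every part, from 0.308 points at promoters to 1.42 in UTRs and other exons. On this scale the 4 replicates gave 0.422, -1.53, 1.48 and -0.607 points over all CpGs, so that the estimate itself had no constant sign. Within windows the weighting mattered less, and the mean over windows differed by -0.155 points when calls were weighted there.

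With distance from the nearest TSS, the estimate was lowest under 0.5 kb, where 13294 windows gave 0.262 and 0.134 points in shScr and 0.167 and 0.117 in shTet3. Between 2 and 10 kb it was 0.922 and 0.776 points in shScr and 0.346 and 0.607 in shTet3 over 6892 windows, and this difference of -0.373 points was the largest of the 5 distance classes. Beyond 50 kb the groups overlapped, with 0.766 and 0.746 against 0.331 and 0.817 points. Windows with 3 or 4 CpGs had a difference of -0.235 points, and windows with 40 or more CpGs had one of -0.0521. These classes differed in BS level, which was 47.9% to 68.8% in the former and 1.92% to 2.76% in the latter. As a share of the BS level, the estimate was 1.36% in shScr and 1.31% in shTet3 in the former. In the latter it was 3.53% and 1.75%. On this scale it was 2.43% and 2.28% under 0.5 kb from a TSS, and 1.36% and 0.971% between 2 and 10 kb.

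The direction was shared by most chromosomes. Of the 20 chromosomes with at least 20 windows, 18 had a lower mean estimate in shTet3, and in 9 of them the shTet3 and shScr replicates did not overlap. All chromosomes were read in the same 8 libraries, so that an offset of 1 library would move them together. They are therefore not independent repeats of the difference. The most negative difference was -0.321 points, on chromosome 10. Chromosome X had the fewest windows of the 20 and is named because its difference was the highest. Its 518 windows gave -0.0154 and 0.122 points in shScr and 0.692 and 0.602 in shTet3. This put shTet3 above shScr by 0.593 points without overlap. Counting alone gave this difference an error between 0.137 and 0.278 points, and the SD of the change over its windows was 7.04 points. The BS level of chromosome X was 22.8% and 27.2% in shScr against 19.2% and 18.99% in shTet3, lower in shTet3 as in all windows together. Without chromosomes X and Y the difference over windows was -0.172 points.

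**Figure D2:**
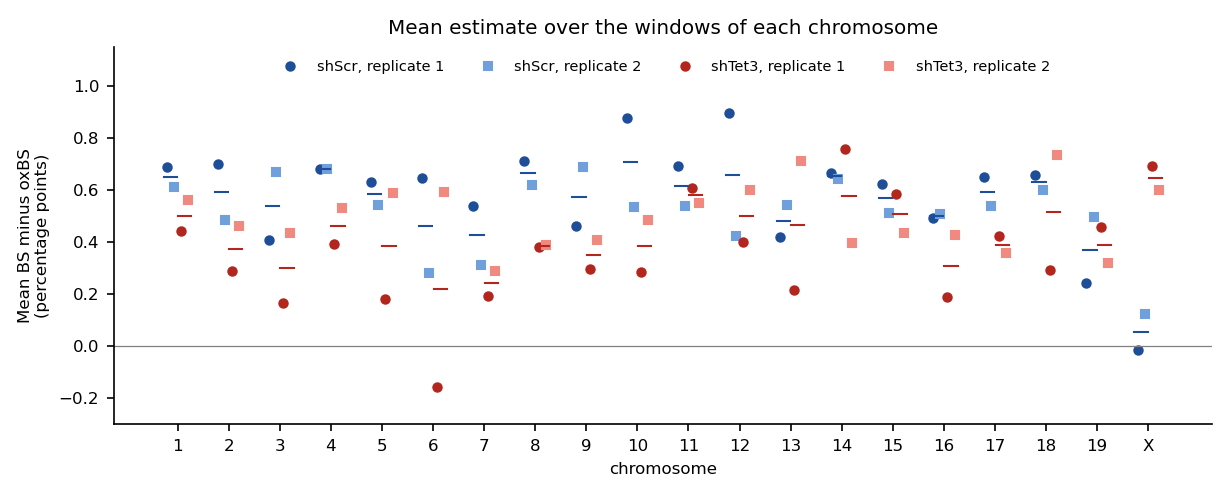
Mean BS minus oxBS in percentage points over the windows of each chromosome with at least 20 windows, with a point for each replicate and a bar for the mean of 2 replicates. The shTet3 mean is below the shScr mean on 18 of 20 chromosomes, and chromosome X is the only one on which both shTet3 points lie above both shScr points.

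To find single regions with a change, each window, promoter and gene body was tested with limma on its 4 estimates, with Benjamini-Hochberg adjustment over all regions of its kind. No window passed an adjusted p of 0.05 in either direction, which is 0% of the 41333 tested, and the smallest adjusted p was 0.957. No promoter and no gene body passed either (0% of each), with smallest adjusted p values of 0.922 and 0.511. At an unadjusted p under 0.05, 780 windows were higher and 951 lower in shTet3, with 244 and 322 promoters and 157 and 191 gene bodies. These stand against 41333 windows, 11417 promoters and 8837 gene bodies tested. With both directions together, each kind stayed below the share of 0.05 that this threshold gives without a change. The shTet3 estimates were both higher than the shScr estimates in 15.1% of windows and both lower in 16.7%. The shares were 15% and 16.6% of promoters and 14.7% and 17.3% of gene bodies. The median standard error of a change was 4.82 points for a window, 3.89 for a gene body and 0.299 for a promoter, and the first of these is several times the mean estimate of 0.577 points in shScr. Loss of all estimated 5hmC from an average window was therefore not detectable at this depth and replication.

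Tests on the calls themselves, which take counting as the only error, made many calls in both directions. At a *q* value below 0.01 and a change over 10 points, a binomial test called 833 windows higher and 1010 lower, and a logistic regression with an interaction of shRNA and oxidation called 727 higher and 986 lower, which are 4.46% and 4.14% of the windows. The spread of the estimates bore on these calls. Over windows the SD of the estimate was 6.41 and 5.03 points in shScr and 7.52 and 5.15 in shTet3, whereas counting gave between 2.90 and 3.46 points if CpGs are independent and between 5.93 and 6.996 if the CpGs of a window lie on the same reads. The SD of the change was 6.05 points, against 3.18 and 6.46 from counting on the same assumptions. The change lay within 5 points in 69.8% of windows, and 2056 windows were over 10 points higher and 2374 over 10 points lower in shTet3.

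Estimates of the same window had almost nothing in common between replicates. Across windows, which are not independent replicates, Pearson's r was 0.0201 between the shScr replicates and 0.00721 between the shTet3 replicates, while the BS and oxBS levels of the same libraries correlated with r between 0.955 and 0.961. Among the 22926 windows above 40% methylation r was 0.0151 in shScr and 0.00475 in shTet3. The 413 windows with the highest estimates in shScr replicate 1 averaged 23.2 points there, 1.05 points in shScr replicate 2, and 0.849 and 0.239 points in shTet3. The 413 highest of shTet3 replicate 1 averaged 27.0 points there and 1.33 points in shTet3 replicate 2. Negative estimates were nearly as common and as large. They made up between 40.9% and 44.9% of windows in each replicate, and the 413 lowest windows of shTet3 replicate 1 averaged -26.6 points there against 0.691 points in shTet3 replicate 2.

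**Figure D3:**
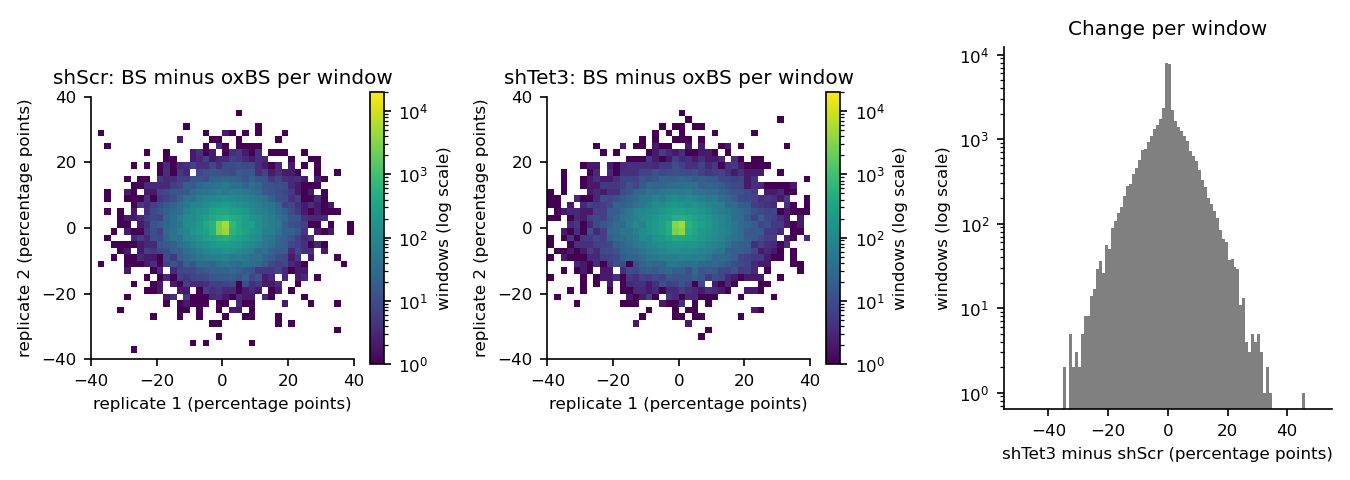
BS minus oxBS per window in percentage points, replicate 2 against replicate 1, for shScr (left) and shTet3 (middle), with the number of windows in each 2-point square as colour on a log scale, and the number of windows by change in shTet3 (right, log scale). The clouds are centred near 0 and wider along replicate 1 than along replicate 2, without a slope (r of 0.0201 and 0.00721). The change extends about as far upward as downward. Outside the range drawn on the left and in the middle are 1 window of shScr and 17 of shTet3.

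Positive estimates were somewhat more common than negative ones in each replicate taken singly, with between 50.5% and 53.1% of windows above 0. More windows with joint positive estimates can follow from this alone, and whether the same windows recur beyond it was not tested. All 4 estimates were above 5 points in 176 of the 41333 windows and below -5 points in 59. For 10 points, the numbers were 5 above and 5 below. Within each shRNA, both replicates were above 5 points in 1767 windows of shScr and 1835 of shTet3, and both were below -5 points in 893 and 1227 windows. The 1767 windows of shScr averaged 1.07 and 1.30 points in the shTet3 replicates, and the 893 negative windows of shScr averaged -0.337 and 0.545 points there. Conversely, the 1835 windows of shTet3 averaged 1.40 and 1.22 points in shScr, and its 1227 negative windows 0.445 and 0.513. BS exceeded oxBS on the pooled calls of 742 windows in shScr (1.80%) and 736 in shTet3 (1.78%), at a *q* value below 0.01 and over 10 points. It fell short of oxBS in 323 (0.781%) and 503 (1.22%) windows. This test took counting as the only error. Both replicates were over 10 points from 0 in only 28.6% to 35.6% of the windows called. In shTet3 the windows called averaged 18.9 and 9.57 points in replicates 1 and 2 above, and -19.5 and -8.59 below. The calls in the impossible direction were thus 43.5% of those in the possible direction in shScr and 68.3% in shTet3, and a difference between these shares was not tested.

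The 5 windows with all 4 estimates above 10 points were looked at singly, as a description, since these values chose them. The *Srrm4* window, chr5:116899001-116900000, lay in a coding exon of this gene, whose protein drives neuron-specific splicing. Its 3 CpGs gave 23.6 and 15.1 points in shScr and 11.2 and 18.4 in shTet3, with BS levels from 54.0% to 70.9%, and the groups overlapped. A window in an intron of *Jdp2*, which codes for a repressor that dimerises with Jun proteins, held 4 CpGs and gave 10.1 and 12.2 points in shScr and 23.2 and 17.9 in shTet3. The change of 9.39 points at *Jdp2* had an SE of 6.27 (adjusted p = 0.957, limma). The other three were an intronic window of *Fam38b* and 2 intergenic windows of 3 CpGs each, with changes between -4.04 and 4.14 points.

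The windows with the clearest separation between the shRNAs were selected by rule, since none passed the adjusted p: the 5 smallest limma p values in each direction among windows with at least 5 CpGs, no overlap and a change over 10 points. That pool held 453 windows higher and 547 lower in shTet3. The 10 selected windows, W1 to W10, had changes between 10.6 and 23.8 points, SEs between 1.64 and 4.60, unadjusted p values between 0.000615 and 0.00441 and the same adjusted p of 0.957. They were selected on the same calls that the binomial and logistic tests use, so that those tests add no support.

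W1, chr7:19764001-19765000, covered 23 CpGs in a coding exon of *Eml2*, which codes for a microtubule-associated protein. It gave -7.13 and -6.56 points in shScr and 3.15 and 6.73 in shTet3. BS was alike in both, at 21.7% and 17.9% in shScr against 18.1% and 19.7%, whereas the oxBS levels were 28.8% and 24.5% against 15.0% and 13.0%. The higher estimate in shTet3 was thus set against shScr estimates below 0, which no amount of 5hmC can give. W5, in a coding exon of the protein tyrosine phosphatase gene *Ptpn13*, gave -8.16 and -3.98 points against 11.9 and 7.21. W4 lay mainly in an intron of *Chat*, the gene for the enzyme that makes acetylcholine, and gave -9.53 and -8.20 points against 2.23 and 1.14. Its BS level was 44.1% and 16.7% in the shScr replicates, against 24.6% and 21.5% in shTet3. W2 (26326 bp downstream of the TSS of *Gsc*, a homeobox gene) and W3 were intergenic, with -5.83 and -0.798 points against 22.8 and 15.6 at W2, and with -21.2 and -16.8 against 2.93 and 6.62 at W3.

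Among the windows lower in shTet3, W7 covered 11 CpGs in a coding exon of *Hs3st3b1*, a heparan sulphate sulphotransferase gene, at chr11:63702001-63703000. It gave 13.3 and 16.2 points in shScr and -6.13 and -6.04 in shTet3, a change of -20.8 points (SE 2.90). The BS level was 67.8% and 88.9% in shScr and 69.2% and 77.6% in shTet3, and the oxBS level was 54.5% and 72.7% against 75.4% and 83.6%. W8, chr9:24585001-24586000, was intergenic, 6918 bp upstream of the TSS of the T-box gene *Tbx20*, and gave 13.6 and 10.7 points against -4.91 and -5.56. Here the BS level was the one that differed most, from 18.5% and 19.2% in shScr to 3.71% and 7.80% in shTet3. W6 lay at *Mab21l2*, a gene of eye development that lies within *Lrba*, and held 25 promoter and 4 coding exon CpGs. The nearest TSS was that of *Lrba*, at 708 bp. The 29 CpGs of W6 gave 5.28 and 8.72 points against -4.03 and -6.40. W9, in a coding exon of the homeobox gene *Nkx2-6*, gave 5.82 and 6.32 points against -6.48 and -2.58, and the intergenic W10 gave 10.03 and 4.28 against -14.4 and -13.5.

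**Figure D4:**
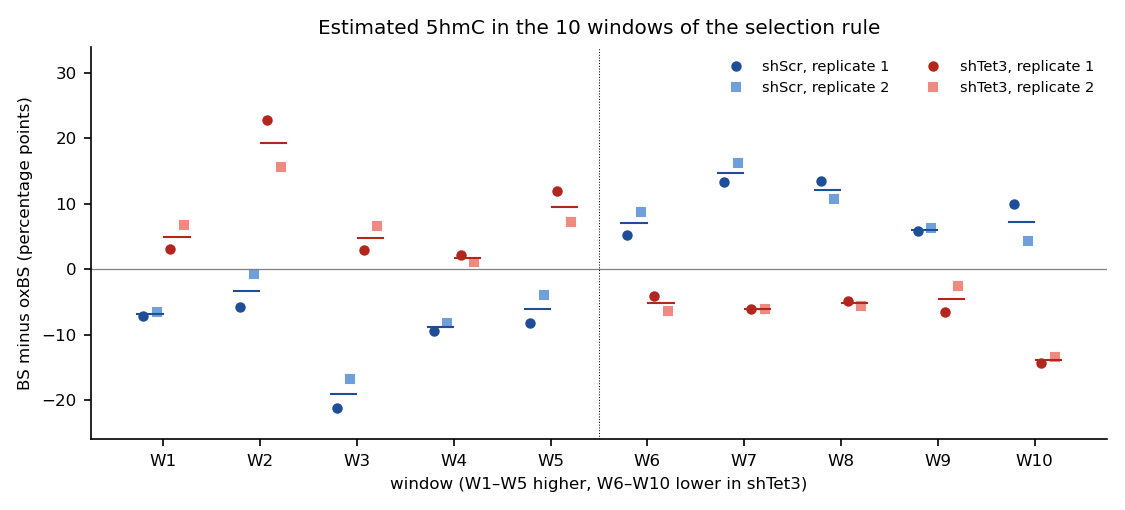
BS minus oxBS in percentage points in the 10 selected windows, with a point for each replicate and a bar for the mean of 2 replicates, for shScr (blue) and shTet3 (red). In all 10 windows the group with the lower values has both of its replicates below 0.

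In all 10 windows the lower group had both replicates below 0 and the other group both above 0. The same held widely in the pool from which they came: both replicates of the lower group were negative in 319 of the 453 windows higher in shTet3 (70.4%) and in 406 of the 547 lower in shTet3 (74.2%). All 4 estimates were at or above 0 in only 11 and 6 of these windows. Since the pool was chosen for large differences between estimates centred near 0, values on both sides of 0 follow in part from the choice.

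Promoters and gene bodies selected by the same rule were of the same kind. In 8 of 10 promoters and in 10 of 10 gene bodies the lower group had both estimates below 0. The promoter of *Neil2*, a DNA glycosylase gene of base excision repair, gave 11.2 and 18.3 points in shScr and -3.36 and -8.23 in shTet3. The promoter of *Il20ra*, coding for an interleukin receptor chain, gave 8.11 and 9.59 points against -4.98 and 0.684. *6330406I15Rik*, *Gm6505* and the keratin gene *Krt26* were the other promoters lower in shTet3, with changes of -11.9, -15.1 and -11.9 points. *Tmem26*, a membrane protein gene, was the only selected promoter with 4 positive estimates, 5.20 and 2.77 points in shScr and 18.99 and 13.7 in shTet3, at BS levels of 62.6% and 49.1% against 46.7% and 45.3%. The other promoters higher in shTet3 were those of *4931440F15Rik* (13.4 points), the X-linked *Arhgap36*, a gene linked to Hedgehog signalling (21.7), *Gm20509* (24.8) and *B3gnt8*, a glycosyltransferase gene (12.3). The shScr replicates lay far apart in BS level at *4931440F15Rik* (29.3% and 54.3%), *Arhgap36* (43.0% and 19.2%) and *Gm20509* (30.6% and 63.4%), and less so at *B3gnt8* (27.9% and 21.4%). The adjusted p of all 10 promoters was 0.922 (limma).

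The gene bodies higher in shTet3 were *Eml2*, whose 23 measured CpGs are those of W1, *Mypn*, coding for a protein of the sarcomere (36 CpGs, 11.6 points), *Anapc4*, a subunit of the anaphase-promoting complex (14.9), *Eif4g3*, a translation initiation factor (12.8), and the Myc family gene *Mycs* (17.4). Those lower in shTet3 were *Zfp663* (-16.5), the somatostatin receptor gene *Sstr2* (-11.3), *Mcm2*, a subunit of the replicative helicase (-17.9), *Wdr72* (-17.5) and *Bbs1*, a gene of the cilium (-14.1). *Mcm2* gave 11.9 and 4.38 points in shScr and -13.0 and -6.57 in shTet3. The adjusted p was 0.971 throughout (limma). The smallest p of any gene body belonged to *Hs3st3b1*, whose change was too small for the rule. Its 52 CpGs, which include those of W7, gave 3.39 and 3.73 points in shScr and -1.62 and -0.685 in shTet3, a change of -4.71 points (SE 0.572, adjusted p = 0.511, limma).

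Genes of methylation, pluripotency, neural identity and imprinting were then looked up in lists. The numbers without overlap are read against all genes, of which 15% of promoters and 14.7% of gene bodies were higher, and 16.6% and 17.3% lower, in shTet3. Among 10 genes of the TET pathway, 9 promoters and 5 gene bodies were measured. The promoters of *Tet2*, *Tet3*, *Tdg* (the glycosylase that removes oxidised 5mC), *Idh1*, *Idh2*, *Mbd4*, *Ogt* and *Cxxc4* were nearly unmethylated, with estimates between -1.68 and 0.858 points. At the *Tet1* promoter only 3 CpGs were measured, with -12.9 and -8.72 points in shScr against -22.0 and -3.31 in shTet3. Both shTet3 values lay above both shScr values at 1 of the 9 (*Tdg*) and below them at 1 (*Mbd4*), against 15% and 16.6% of all promoters. Both of these promoters were among the nearly unmethylated ones. The *Tet3* gene body, chr6:83312367-83391672, was highly methylated, BS being 83.4% and 93.7% in shScr against 70.8% and 76.5% in shTet3. Its 50 CpGs gave estimates of 0.0188 and 1.74 points in shScr and -1.99 and -3.57 in shTet3, a change of -3.66 points (SE 1.38, adjusted p = 0.971, limma). Both shTet3 values were negative. The *Tet1* gene body gave -0.746 and -0.124 points against 0.991 and 0.236 over 39 CpGs, at an SE of 0.683 for the change.

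Of the 5 DNA methyltransferase genes and their cofactors, *Dnmt3a*, coding for a de novo methyltransferase, had the smallest p. Its promoter CpGs, 27 in number, gave 1.57 and 0.346 points in shScr and -1.40 and -0.735 in shTet3, a change of -2.03 points (SE 0.583, adjusted p = 0.922, limma), and its gene body gave 4.15 and 1.96 points against -1.55 and -0.442 (adjusted p = 0.971, limma). The groups did not overlap at either, and shTet3 was negative at both. The promoters of *Dnmt1*, the maintenance methyltransferase, *Dnmt3b* and *Uhrf1*, which recruits *Dnmt1*, lay between -0.0768 and 0.261 points, at BS levels of at most 0.473%. In all, 1 of 4 promoters of this list was higher and 1 lower without overlap, and 0 and 1 of 5 gene bodies, against 15% and 16.6% of all promoters and 14.7% and 17.3% of all gene bodies.

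Of 12 pluripotency genes, 7 promoters and 5 gene bodies were measured. Without overlap, 3 promoters were higher and 1 lower in shTet3, and 1 gene body was higher and 1 lower. Of all promoters 15% were higher and 16.6% lower, and of all gene bodies 14.7% and 17.3%. The promoter of *Zfp42* (Rex1), a marker of ES cells, gave 0.967 and 13.6 points in shScr and 15.6 and 19.7 in shTet3 over 5 CpGs, a change of 10.3 points with an SE of 6.87. The promoter of *Esrrb*, a nuclear receptor of the pluripotency network, gave -2.02 and 1.25 points against 1.71 and 2.09. The other promoter higher without overlap, that of *Sox2*, was nearly unmethylated, with BS levels between 0.138% and 1.12%. It gave 0.371 and -0.303 points against 0.851 and 0.378. At *Tcl1* only 3 CpGs were measured, with -1.33 and 13.9 points against -10.1 and -9.38. At *Pou5f1* (Oct4) the shScr replicates were 18.6 and -2.59 points and the shTet3 replicates -0.100 and -5.41. The replicates of 1 group could thus lie further apart than the groups.

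Of 12 neural genes, 6 promoters and 7 gene bodies were measured. No promoter was higher and 1 was lower without overlap, namely that of *Neurog2*, a proneural transcription factor (0.470 and 0.782 points against 0.246 and 0.300). This promoter was nearly unmethylated, with BS levels between 0.901% and 1.68%. The gene bodies of *Nes*, coding for the intermediate filament nestin (2.80 and 1.003 against 3.63 and 4.79 points), and *Tubb3*, a neuronal tubulin (-10.1 and -4.69 against -1.09 and 8.09), were higher without overlap. The shares over all genes were 16.6% for lower promoters and 14.7% for higher gene bodies. *Pax6*, a transcription factor of radial glia, gave values that followed the replicate number rather than the shRNA at its promoter, with 1.23 and -3.38 points in shScr and 0.674 and -3.77 in shTet3. Of the 10 genes that the study named for methylation, a list chosen on these samples and so not independent of them, all 10 had a measured promoter. *Fgfr1* had a promoter under each of 2 gene models, and 1 promoter of the list, that of the GTPase gene *Rac3*, was lower without overlap, against 16.6% of all promoters, while the groups overlapped in each of 7 gene bodies. The promoter of *Otx2*, a homeobox gene of the anterior brain, had 4 positive estimates, 2.502 and 6.12 points in shScr and 4.52 and 7.94 in shTet3, which overlapped.

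At imprinted genes, where 1 parental copy is methylated, estimates of 1 sign in all replicates were found in both directions. Of 10 promoters, 1 was higher and 0 were lower without overlap, against 15% and 16.6% of all promoters. The *Grb10* gene body, an adaptor of growth factor receptors on chromosome 11, gave 19.2 and 13.9 points in shScr and 12.1 and 7.62 in shTet3 over the 15 intronic CpGs printed above. BS stood at 59.4% and 42.7% in shScr against 39.05% and 47.0% in shTet3, and the change of -6.63 points had an SE of 4.41 (adjusted p = 0.971, limma). The *Zrsr1* gene body gave 8.13 and 6.88 points against 5.29 and 3.61 over 5 CpGs. These were the 2 of 7 imprinted gene bodies that were lower without overlap, against 17.3% of all gene bodies. Conversely, the *Snrpn* promoter, in the Prader-Willi region, gave -5.43 and -8.55 points in shScr and -8.56 and -7.95 in shTet3 over 7 CpGs, and the *Nnat* promoter gave -1.39 and -5.86 against -3.05 and -4.09. oxBS thus exceeded BS in all 4 pairs of libraries at these promoters, which shows that a sign shared by all replicates also occurred where 5hmC cannot be its source. At the *Peg10* promoter replicate 1 gave 17.2 points in shScr and -16.2 in shTet3, and replicate 2 gave -0.902 and -0.343. Among 3 promoters of feeder fibroblast genes, *Twist2* gave 4.68 and 0.170 points in shScr and -2.35 and -4.39 in shTet3, without overlap, the only one of the 3 against 16.6% of all promoters lower in this way, and none of 5 gene bodies was without overlap.

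**Figure D5:**
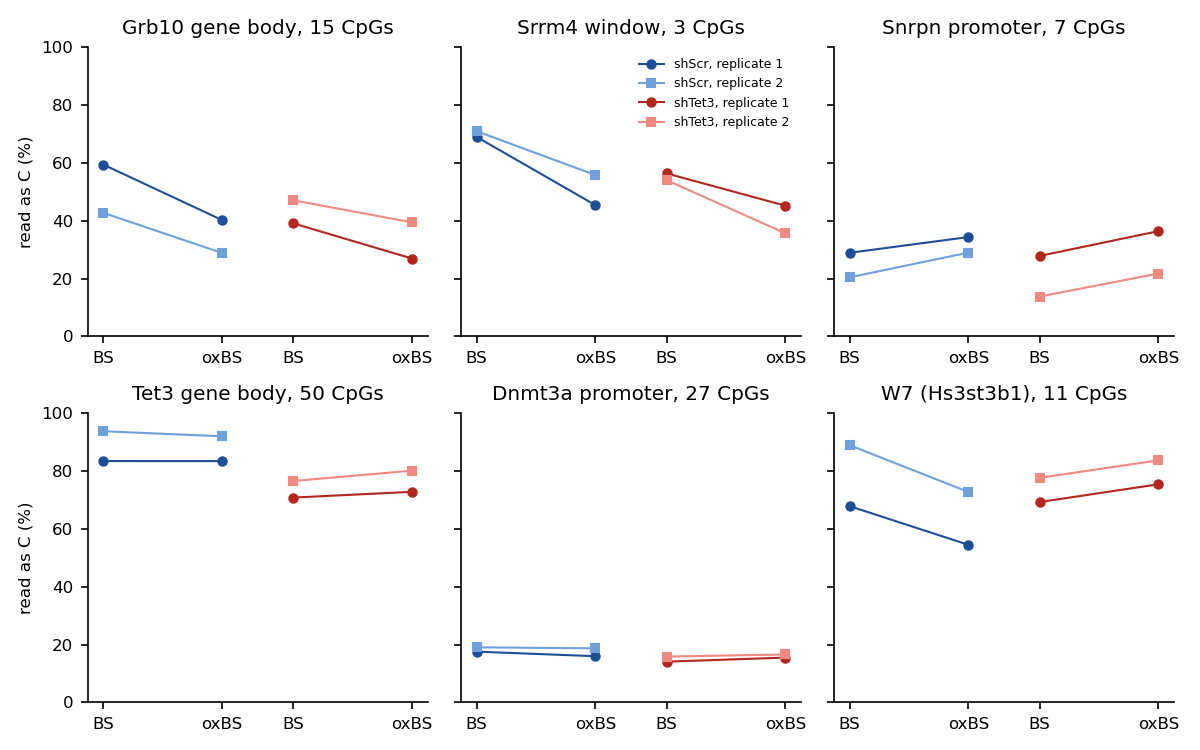
Percent of calls read as C in the BS and oxBS library of each replicate (lines join the libraries of the same shRNA and replicate number), for shScr (blue) and shTet3 (red), in 6 regions. A line that falls to the right is a positive estimate of 5hmC: all 4 lines fall at the *Grb10* gene body and the *Srrm4* window, all 4 rise at the *Snrpn* promoter, and the lines of shScr and shTet3 differ in direction at W7 and the *Dnmt3a* promoter.

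The medians of the lists were set beside those of all genes. The median change over all promoters was -0.0102 points, and list medians lay between -2.17 (fibroblast) and 0.580 (pluripotency). Over all gene bodies the median change was -0.121 points, with list medians between -2.45 (fibroblast) and 1.31 (imprinted). Lists of 3 to 10 measured genes give medians that a single gene can move. All 4 estimates were positive in 8 of 50 list promoters and 10 of 41 list gene bodies, against 7.45% of all promoters and 11.0% of all gene bodies. They were negative in 4 and 2 of them, against 3.47% and 3.80%. Over all windows the shares were 8.46% positive and 3.98% negative.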

How the data were processed

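oxRRBS libraries of NPCs with shScr or shTet3 (2 replicates each, a BS and an oxBS library per replicate) were grouped by their labels. According to the methods and processing notes, the authors trimmed reads with Trim Galore, aligned them to mm9 with Bismark and wrote tables for methylKit. For each CpG the deposited files give the coverage, an unnormalised count, and which percent of it was read as C and as T. Every deposited file lists the same CpGs with a coverage of at least 5. Methylated counts were recovered as percent times coverage and were whole numbers to within 1.2e-10. All listed positions were forward-strand CpGs of mm9 (NCBIM37), and genes were those of GENCODE vM1.

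Levels were unweighted means over CpGs, and BS minus oxBS was taken within each shRNA and replicate number. For means of 2 against 2 values, an exact permutation test (two-sided) was used. Windows, promoters and gene bodies were tested with limma 3.58.1 in R 4.3.3, with the log of the expected counting variance (pseudocount 0.5 call) as trend, Benjamini-Hochberg adjustment and an adjusted p under 0.05. The scripts were tested on simulated data. Named regions were the 5 smallest p values in each direction among those with at least 5 CpGs, no overlap and a change over 10 points, plus listed genes. Windows with all 4 estimates above 10 points, *Hs3st3b1* and the 5 printed sequences were chosen after their values were seen. The members and lists were chosen with earlier results of these data known. Alternatives were other coverage minimums, a coverage cap, read weighting, thinning to 20 calls, autosomes only, other windows and promoters, other groupings of levels, other limma settings, tests on calls, a replicate block and leaving out each replicate. For promoters and gene bodies, thinning, limma without a trend, robust limma and a stricter threshold were added after seeing the data. Spike-in controls of oxidation and RNA were not analysed here.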

Additional observations from a re-analysis of the deposited data

How the results depend on the processing

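The mean difference over windows kept its sign under each of the 13 alternatives run, from -0.0895 to -0.235 points, both of these with a replicate left out, but was 0.987 points with the calls of all CpGs pooled. The difference by gene part turned positive when all calls of a part were pooled (read weighting): 0.308 points at promoters, 0.709 in coding exons, 1.42 in UTRs and other exons, 1.07 in introns and 0.938 in intergenic DNA. In UTRs and other exons it was 0.0991 at a coverage minimum of 30 and -0.307 at one of 10. It ranged from -0.0877 to 0.0193 at promoters with each replicate left out, positive without shScr replicate 1. In windows between 20% and 40% it was 0.0445 with read weighting, 0.0214 with at least 5 CpGs, 0.140 grouped by shScr replicate 1 and compared over the other and 0.270 grouped by shScr BS, and ranged from -0.179 to 0.0682 with each replicate left out, positive without shScr replicate 1. Grouping by shScr BS gave 0.0216 below 20% and 0.547 between 40% and 60%, and grouping by shScr oxBS gave 0.829 above 80%. The BS library entered both the group and the difference in the former case and the oxBS library in the latter, which by construction moves windows with errors of 1 sign together.

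No window or promoter passed the adjusted p under any limma setting run, and the tests on calls gave 833 and 727 windows higher and 1010 and 986 lower. With each replicate left out, between 0 and 1 gene bodies were lower and none higher. The 1 gene body, called without shTet3 replicate 2, was *Gm20388*, a gene model of 2068 measured CpGs at chr8:122434741-126869622. This long stretch also holds other genes, such as *Tubb3*, so that its value is not that of 1 gene. It gave 1.05 and 0.920 points in shScr and -0.0754 in shTet3 replicate 1 (limma, the lone shTet3 value being assumed to vary like the shScr values). With replicate 2 at 0.498 its adjusted p was 0.971. Whether same-numbered shScr and shTet3 replicates belong together is not known. Their deviations correlated with r = 0.00634 across windows, which cannot tell, since replicates of 1 shRNA correlated little more. With the replicate block the mean difference was -0.162 points as before and no window, promoter or gene body passed. At an unadjusted p under 0.05, 817 of 41333 windows were higher and 996 lower, together again below a share of 0.05. Of the other alternatives, 257 of the main comparisons and all 276 of single regions kept their direction and side of the threshold. Part of this was fixed in advance. In regions selected for no overlap, leaving out a replicate cannot reverse the direction, and the replicate block leaves a difference unchanged. Depth and 2 replicates per shRNA limited single windows to changes several times larger than the mean estimate.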

Other observations

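Windows were also split by both level and gene part. Between 40% and 60% methylation the shTet3 mean was lower in each of the 5 parts, with differences from -0.407 points in intergenic DNA to -0.963 in UTRs and other exons. In introns at this level, 1152 windows gave 1.71 and 1.48 points in shScr and 0.959 and 0.786 in shTet3, and in coding exons 518 windows gave 0.897 and 0.366 against 0.0319 and 0.148. Intergenic windows of this level, 2034 in number, gave 1.05 and 0.896 points against 0.371 and 0.761. The replicates did not overlap in these 3 classes, nor in 76 windows of UTRs and other exons at this level (p = 0.33 each, exact permutation test, the smallest possible), and promoters of this level overlapped, with 1.83 and 0.794 points against 1.18 and 0.191. Above 80%, 290 windows of UTRs and other exons had the opposite order without overlap, -0.0626 and 0.181 points in shScr against 0.442 and 0.555 in shTet3, a difference of 0.439 points. Promoters above 80% also had a higher shTet3 mean, with -0.0868 and 0.416 points against 0.811 and 0.268 over 269 windows, and overlapped. The 25 classes were described with no adjustment, and no difference between classes was tested.

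Near-unmethylated promoter windows, below 20%, held 12165 windows and gave 0.150 and 0.0907 points in shScr and 0.0927 and 0.0926 in shTet3, at BS levels between 1.44% and 2.14%. On chromosome Y only 6 windows were measured, with -0.0220 and 1.46 points in shScr and 3.09 and 5.47 in shTet3, and they were left out of the counts by chromosome.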
